A study of Mus musculus with 8 samples.

Results

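The genes described here are 8 transcription factors and cofactors of the red cell lineage, Gata1, Klf1, Tal1, Nfe2, Gfi1b, Zfpm1, Lmo2 and Ldb1, chosen by gene symbol from the 56748 genes of a count table of mouse blood. All 8 are in the table, and 7 of them passed the filter on low counts that left 14723 genes to be tested; Klf1 did not. The samples are peripheral blood mononuclear cells, the lymphocyte and monocyte fraction that a density gradient separates from most red cells and granulocytes. They came from male wild-type C57BL/6J mice, 8 weeks old, fed a standard basal diet and gavaged daily for 1 month. The fucoidan group (n = 3 mice) received fucoidan, a sulphated polysaccharide of brown algae, from Undaria pinnatifida at 200 mg/kg per day, and the saline group (n = 5 mice) received the same volume of saline. The labels describe the samples as biological replicates. One protocol field of the fucoidan samples speaks of saline, and their titles and treatment labels, which were followed here, of fucoidan. The study asked how oral fucoidan changes the transcriptome and the cell composition of this blood fraction.

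GATA1 is the DNA-binding factor that most erythroid and megakaryocytic genes depend on, and it works with the cofactor ZFPM1, also called FOG1. On many of the same regulatory elements it forms a complex with TAL1, a basic helix-loop-helix factor paired with an E protein, and with the non-DNA-binding adaptors LMO2 and LDB1, the second of which links distant elements by self-association. KLF1 activates adult beta-globin and other red cell genes, NFE2 pairs with small MAF proteins on globin and platelet genes, and GFI1B is a repressor needed in both lineages. The mature mammalian red cell and the platelet have no nucleus and carry RNA left from their precursors, so transcripts of these factors in blood can come from reticulocytes and platelets as well as from nucleated cells.

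Because several of these factors are known to regulate each other and themselves, the sequence before the start site of 4 members is shown, for 3 that were higher after fucoidan (Gata1, Tal1 and Gfi1b) and for Klf1, which was close to undetected. Each run is the 250 bases before the start site in the gene's own direction, 5′ to 3′, from RefSeq's promoter windows on GRCm38.p6. Those windows also cover 50 bases after the start, and RefSeq windows were matched by symbol for 6 of the 8 members, 9 windows in all. Capitals mark matches on either strand to a GATA site (the letters GATA with A or T before them and A or G after them), a CACCC box (CCNCNCCC, the kind of element KLF factors bind), an E-box (CAGNTG, bound by TAL1 with its E protein) or an NF-E2 core (TGANTCA). The intervals are chrX:7967911-7968160, minus strand, for Gata1, chr8:84901732-84901981, plus strand, for Klf1, chr4:115056176-115056425, plus strand, for the upstream window of Tal1, and chr2:28621983-28622232, minus strand, for Gfi1b.
Gata1: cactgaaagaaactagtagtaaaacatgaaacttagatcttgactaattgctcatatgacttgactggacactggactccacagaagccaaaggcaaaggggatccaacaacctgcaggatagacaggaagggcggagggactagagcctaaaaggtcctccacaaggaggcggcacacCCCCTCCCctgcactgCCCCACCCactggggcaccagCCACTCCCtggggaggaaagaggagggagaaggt
Klf1: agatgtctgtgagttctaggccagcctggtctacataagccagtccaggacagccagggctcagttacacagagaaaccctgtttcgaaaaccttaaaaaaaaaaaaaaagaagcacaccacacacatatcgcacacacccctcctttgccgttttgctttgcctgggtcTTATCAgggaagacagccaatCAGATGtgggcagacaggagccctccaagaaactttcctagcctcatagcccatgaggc
Tal1: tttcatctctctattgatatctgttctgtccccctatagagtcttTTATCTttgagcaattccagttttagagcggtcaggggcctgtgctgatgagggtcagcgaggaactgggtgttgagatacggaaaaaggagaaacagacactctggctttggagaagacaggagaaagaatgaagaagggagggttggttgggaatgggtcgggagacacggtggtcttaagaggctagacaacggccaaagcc
Gfi1b: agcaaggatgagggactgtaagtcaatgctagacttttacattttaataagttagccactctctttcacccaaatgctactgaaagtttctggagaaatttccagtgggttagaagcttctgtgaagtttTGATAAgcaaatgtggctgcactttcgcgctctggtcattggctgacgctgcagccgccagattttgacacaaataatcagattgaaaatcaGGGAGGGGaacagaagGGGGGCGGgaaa
The Gata1 run holds 3 matches to the CACCC-box pattern, of which only CCCCACCC has the letters CACCC, and no GATA site. The Klf1 run has a GATA site starting at position -80 from the start site and an E-box at -59. The Tal1 run has a GATA site at -205, and the Gfi1b run one at -120. The Gfi1b run also has matches to the CACCC-box pattern at -28 and -12, neither with the letters CACCC on either strand. Over all 32851 RefSeq promoter windows of the same length, 29.8% held a GATA site, 49.5% a CACCC box, 51.4% an E-box and 7.81% an NF-E2 core; the letters TGANTCA were in none of the 9 windows of the members. Of the windows not shown, one of Ldb1, a gene that was not called, held 2 GATA sites. The others, of Tal1, Zfpm1 and Ldb1, held none. These matches describe the letters and no binding was measured.

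Total counts were 15453636 to 16334932 per saline library and 13061703 to 15798058 per fucoidan library. Haemoglobin genes took 3.51% to 8.48% of the counts in saline and 13.5% to 24.1% in fucoidan libraries, and fucoidan replicate 3 held the highest share. Correlations of log2 values between libraries were 0.967 to 0.986 within saline and 0.979 to 0.985 within fucoidan, so fucoidan replicate 3 correlated with its own group, yet it had the highest level of many genes below, and the values without it are given where they change a result. In bulk blood samples a gene at a higher level may reflect more cells of a type or more RNA in each, and these cannot be told apart.

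Levels of different genes can be compared only per length, and on that scale (RPKM, reads per kilobase of gene length and depth) Lmo2 and Ldb1 were the most abundant of the 8 in saline blood. Lmo2 had a mean of 68.8 RPKM (range 55.7 to 80.0 over the 5 libraries) and Ldb1 57.6 RPKM (50.1 to 61.5), and their ranges overlapped. Nfe2 followed at 28.6 RPKM and Zfpm1 at 12.8 RPKM. Gata1, at a mean of 6.03 RPKM (3.79 to 8.95), and Tal1, at 5.20 RPKM (3.53 to 7.75), had overlapping ranges. Within every saline library Gata1 was above Tal1. Gfi1b was at 1.42 RPKM and Klf1 at 0.172 RPKM. After fucoidan the mean of Nfe2 was 61.2 RPKM (44.3 to 90.4), and its range overlapped those of Lmo2 (mean 79.4 RPKM) and of Ldb1 (mean 52.6 RPKM). Within every fucoidan library Nfe2 was below Lmo2. The ranges of Gata1, Tal1 and Zfpm1 also overlapped one another there, with mean levels of 16.8 RPKM, 15.4 RPKM and 20.8 RPKM. In each of those libraries Gata1 and Zfpm1 were above Tal1.

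After fucoidan, 5 of the 7 tested factors rose: Tal1 and Gata1 by close to 3-fold, Gfi1b by 2.59-fold, Nfe2 by 2.14-fold and Zfpm1 by 1.62-fold. Lmo2 and Ldb1, the adaptors of the GATA1 and TAL1 complex, did not pass the test, and Klf1 was at a handful of counts in every library. Calls rest on edgeR's quasi-likelihood test, with Benjamini-Hochberg adjustment over all 14723 genes and a threshold of 0.05. That rule called 9.11% of all genes higher and 4.65% lower. Among the 868 tested genes to which the table assigns a transcription factor family, it called 5.18% higher and 3.34% lower. The median log2 fold change was 1.10 over the 7 tested members, -0.04 over all genes and -0.03 over the factor-family genes. With upper-quartile scaling, which moved the median of all genes to -0.09, the genes called numbered 1241 higher and 989 lower, in place of 1341 and 684, and the same number of members, 5, was called higher. The 5 called members were also those whose fucoidan libraries all lay above all saline libraries, an arrangement that 11.6% of all genes showed.

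Gata1 (ENSMUSG00000031162; GRCm39 chrX:7825499-7844310, minus strand), the zinc finger factor at the head of the programme, had 15.05, 13.3, 21.8, 14.2 and 9.24 CPM (counts relative to library size, scaled by trimmed mean of M values, TMM) in saline replicates 1 to 5. The 3 fucoidan libraries had 28.0, 31.1 and 63.6 CPM. Every fucoidan library was above every saline library, with replicate 3 well above the other two. The mean was 14.7 ± 4.55 (SD, n = 5) in saline and 40.9 ± 19.7 CPM (SD, n = 3) after fucoidan, a log2 fold change of 1.47 (SE 0.29, edgeR adjusted p = 0.00765).

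Tal1 (ENSMUSG00000028717; chr4:114913623-114928952, plus strand), the helix-loop-helix partner of GATA1 on DNA, had 25.2, 19.6, 33.9, 19.8 and 15.4 CPM in the saline libraries. Its fucoidan values were 42.2, 52.15 and 108 CPM. Saline replicate 3 was the highest of its group for both genes, and the groups did not overlap. The log2 fold change of 1.56 (SE 0.30, edgeR adjusted p = 0.00672) was the largest among the members and ranked 338 from the top of the 14723 genes, while that of Gata1 ranked 430.

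Nfe2 (ENSMUSG00000058794; chr15:103156639-103166830, minus strand), the bZIP subunit that acts on globin and platelet genes, had 105, 83.6, 97.3, 75.6 and 65.6 CPM in saline. After fucoidan it had 146, 132.5 and 270.0 CPM, all above the saline values. Its log2 fold change was 1.10 (SE 0.22, edgeR adjusted p = 0.00888).

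Gfi1b (ENSMUSG00000026815; chr2:28499462-28511994, minus strand), the zinc finger repressor, was scarce, with 57, 36, 58, 33 and 42 counts in the saline libraries and 78, 66 and 90 after fucoidan. In CPM these were 3.22, 2.03, 3.60, 1.91 and 2.21 in saline against 5.40, 5.04 and 9.90. The groups were separate, and the log2 fold change was 1.37 (SE 0.30, edgeR adjusted p = 0.0113). Zfpm1 (ENSMUSG00000049577; chr8:123008880-123063990, plus strand), the GATA1 cofactor FOG1, had 39.65, 52.1, 44.5, 38.7 and 49.4 CPM in saline and 65.3, 65.2 and 88.1 CPM after fucoidan. Its highest saline libraries were replicates 2 and 5, which were not the highest for Gata1, Tal1, Nfe2 or Gfi1b. Its log2 fold change was the smallest of the 5 called members, 0.70 (SE 0.14, edgeR adjusted p = 0.00745).

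Without fucoidan replicate 3 the sizes were smaller. The log2 fold changes were then 1.02 for Gata1 (edgeR adjusted p = 0.0379), 1.06 for Tal1 (0.0324), 0.72 for Nfe2 (0.0280) and 0.55 for Zfpm1 (0.0406). Gfi1b, at 1.02, was no longer called (edgeR adjusted p = 0.0691). With no filter on low counts, which brings 27847 genes into the test, Gata1 (edgeR adjusted p = 0.0719), Tal1 (0.0755) and Nfe2 (0.0509) were also not called, while Gfi1b (0.000709) and Zfpm1 (0.000373) were, so that 2 members were called, with fold changes close to those above.

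**Figure D1:**
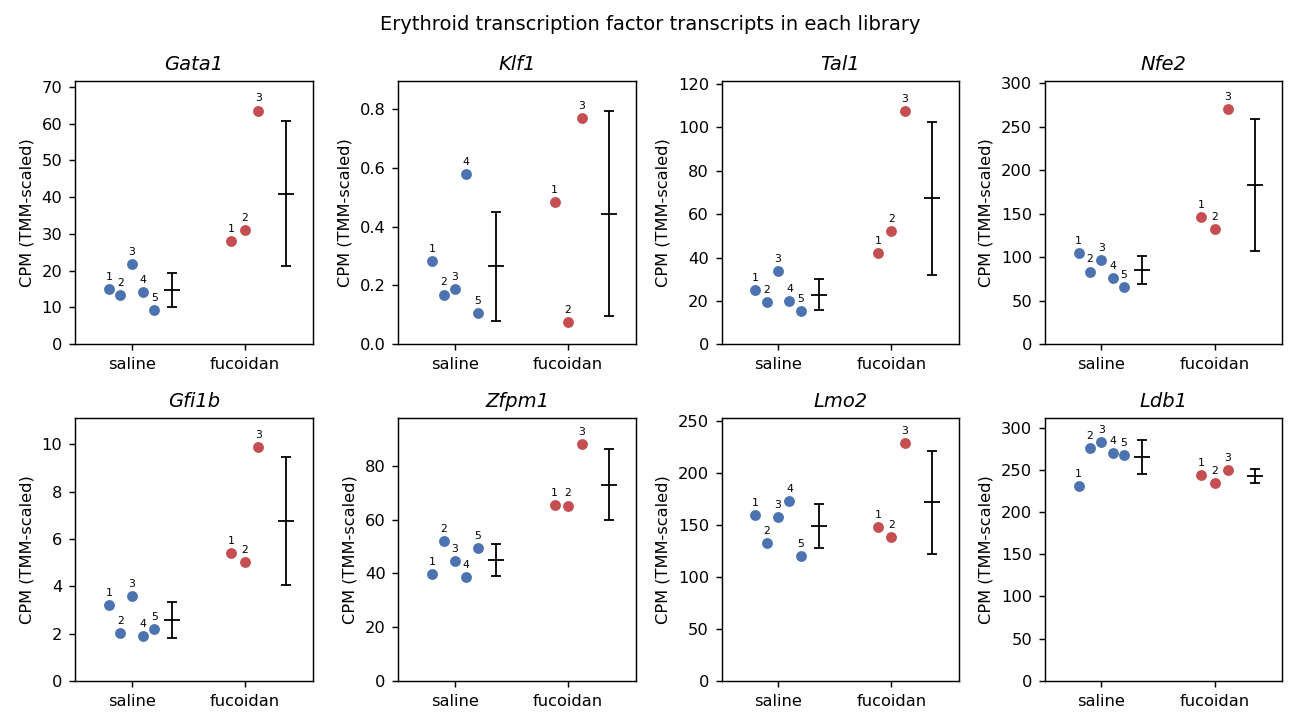
Level of each factor in every library (vertical axis, TMM-scaled CPM from 0; each panel has its own scale), with saline replicates 1 to 5 in blue, fucoidan replicates 1 to 3 in red, and the mean with its SD in black. The fucoidan libraries lie above all saline libraries for Gata1, Tal1, Nfe2, Gfi1b and Zfpm1 and overlap with saline for Klf1, Lmo2 and Ldb1.

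Lmo2 and Ldb1 carry the complex together, and neither passed the test. Lmo2 (ENSMUSG00000032698; chr2:103788331-103812223, plus strand), the LIM-only adaptor between TAL1 and GATA1, had 159.8, 133, 158, 173 and 121 CPM in saline and 148, 138 and 229 CPM after fucoidan. Replicates 1 and 2 of the fucoidan group were inside the saline range and replicate 3 was above it. That place depends in part on scaling, since a low TMM factor raises every CPM of a library. The factor was 0.697 in fucoidan replicate 3, 0.916 and 0.944 in fucoidan replicates 1 and 2, and 1.02 to 1.17 in saline. The log2 fold change of Lmo2 was 0.21 (SE 0.18, edgeR adjusted p = 0.489), and it was -0.05 without fucoidan replicate 3. Ldb1 (ENSMUSG00000025223; chr19:46020009-46033653, minus strand), the self-associating adaptor, had 231, 275, 283.5, 270.1 and 268 CPM in saline and 243.5, 234 and 250.2 CPM after fucoidan. The fucoidan values lay within the saline range, and the log2 fold change was -0.13 (SE 0.10, edgeR adjusted p = 0.442). Genes on the opposite strand overlap both, 4931422A03Rik with Lmo2 over 14936 bases and Pprc1 with Ldb1 over 329 bases. No source used here gives the strand setting of the counting, so reads of the overlap cannot be assigned to one gene; 4931422A03Rik reached at most 50 counts in a library and Pprc1 at most 939.

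Klf1 (ENSMUSG00000054191; chr8:85628557-85631924, plus strand), the activator of adult beta-globin, had 5, 3, 3, 10 and 2 counts in the saline libraries and 7, 1 and 7 in the fucoidan libraries. These sum to 23 counts in saline (95% exact Poisson interval 14.6 to 34.5) and 15 after fucoidan (8.4 to 24.7). Scaled to the TMM-adjusted totals, the ratio of fucoidan to saline was 1.56, with an interval from 0.759 to 3.13 that covers counting error only. At this depth a change of Klf1 of the size seen for Gata1 could be neither detected nor set aside: the fit without a count filter gave a log2 fold change of 0.67 (SE 0.75, edgeR adjusted p = 0.685).

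The ratio of members within a library does not depend on how the library is scaled. Tal1 stood at a log2 ratio to Gata1 of 0.63 ± 0.11 in saline (SD, n = 5) and 0.70 ± 0.10 after fucoidan (SD, n = 3), a difference of 0.07 (exact two-sided permutation p = 0.393). Gfi1b differed by -0.10 relative to Gata1 (exact permutation p = 0.643) and Nfe2 by -0.38 (exact permutation p = 0.0714). Lmo2 differed relative to Gata1 by -1.24 on the log2 scale and Ldb1 by -1.55, and in both cases all 3 fucoidan libraries were below all 5 saline libraries (exact permutation p = 0.0357, the smallest that the 56 arrangements of 5 and 3 libraries allow). Adjusted over the 15 ratios fixed for testing, 0 passed, the smallest adjusted value being 0.0893 from the exact tests, and 6 of the 15 had the smallest unadjusted p.

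The genes these factors are known to drive were also higher. Of 36 erythroid genes listed (globins, heme synthesis enzymes, membrane and late red cell genes), 33 were tested and 27 rose, 0 fell (29 and 0 at an unadjusted p under 0.05, and 27 and 0 each by DESeq2 and by limma-voom), with a median log2 fold change of 2.09. Over all genes 9.11% were called higher and 4.65% lower. The number called higher was 21 of 34 with no count filter and 22 of 33 without fucoidan replicate 3. Hba-a2, an alpha-globin gene that shares sequence with its neighbour Hba-a1 so that reads can be split between them, went from a mean of 1912 to 15690 CPM, a log2 fold change of 3.04 (SE 0.37, edgeR adjusted p = 0.00396), and 2.37 without fucoidan replicate 3. Hba-a1 went from 22540 to 101700 CPM, a log2 fold change of 2.17 (edgeR adjusted p = 0.00522), which was 1.58 without fucoidan replicate 3 and was not called with no count filter (0.0554). Alas2, the erythroid enzyme that begins heme synthesis, rose by 2.33 on the log2 scale, Fech, which completes heme, by 2.27, and Slc4a1, the band 3 anion exchanger, by 2.39. Tspo2 and Trim10, both expressed in late erythroblasts, rose by 2.59 and 2.37. Epor, the erythropoietin receptor, was at 1.48 CPM in saline and 4.43 CPM after fucoidan, a log2 fold change of 1.58 (edgeR adjusted p = 0.0106), and was not called without fucoidan replicate 3 (0.0539). The 6 not called were Uros (0.46), Ermap (0.89), Cpox (0.30), Alad (0.21), Ppox (-0.15) and Tfrc (-0.02, log2), of which 4 are enzymes of the heme pathway and Tfrc is the transferrin receptor.

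Of 20 megakaryocyte and platelet genes, 19 were tested and 18 rose, 0 fell (19 and 0 at an unadjusted p under 0.05, and 18 and 0 each by DESeq2 and by limma-voom), with a median log2 fold change of 1.57. Over all genes 9.11% were called higher and 4.65% lower. Pf4, platelet factor 4, rose from a mean of 240 to 718 CPM and Ppbp, the precursor of other platelet chemokines, from 794 to 2370 CPM, each a log2 fold change of 1.58. Itga2b, the platelet integrin chain CD41, rose by 1.54 and Treml1, a receptor of platelet granules, by 1.61. The genes Tubb1, Rab27b and Tbxas1 are known to depend on NFE2 and also rose: Tubb1, the platelet beta-tubulin, by 1.51, Rab27b, a granule-secretion GTPase, by 1.64 and Tbxas1, thromboxane synthase, by 1.35. Nbeal2, needed for platelet alpha granules, had a log2 fold change of 0.35 and was not called (edgeR adjusted p = 0.144). With no count filter 10 of these genes were called, and Tubb1 (edgeR adjusted p = 0.0661) and Itga2b (0.0524) were not.

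**Figure D2:**
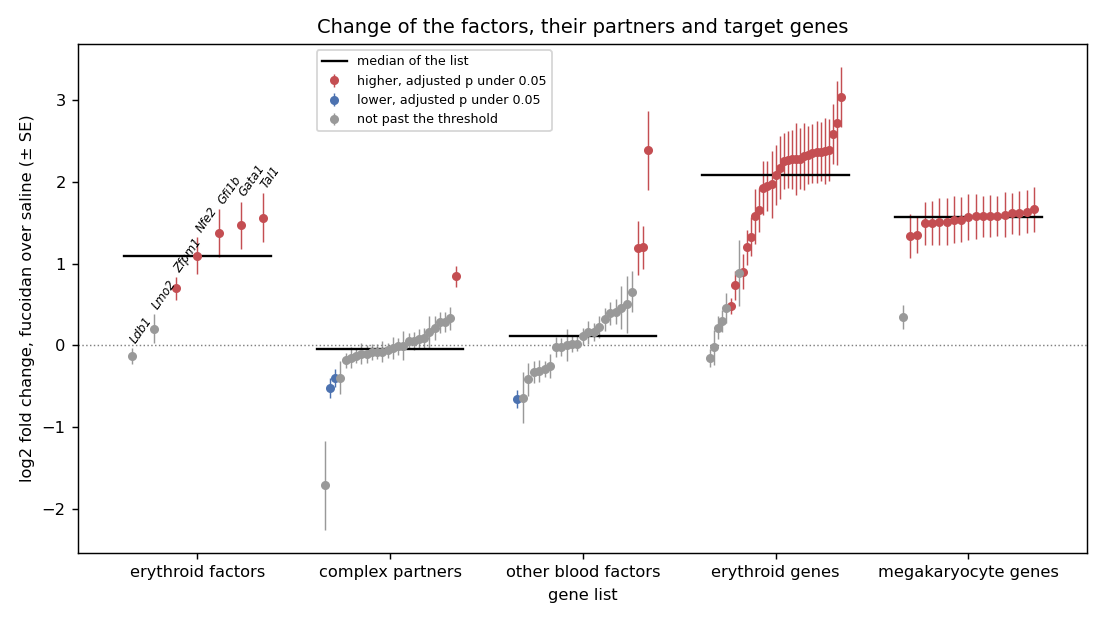
Log2 fold change, fucoidan over saline, with its SE (vertical axis) for the tested genes of 5 lists in order of size, with red for genes called higher, blue for genes called lower, grey for the rest, and a black line at each list's median. The erythroid factors (median 1.10) lie below the erythroid genes (2.09) and the megakaryocyte genes (1.57), and most complex partners and other blood factors lie around 0.

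Set against the mean of the 33 tested erythroid genes within each library, every member had a lower ratio after fucoidan than in saline, from -0.19 for Tal1 to -1.80 for Ldb1 on the log2 scale. The value for Klf1, -1.265, rests on a handful of counts per library, so its direction cannot be judged. The ratio of Gata1 differed by -0.26 (exact permutation p = 0.0714) and that of Nfe2 by -0.63 (exact permutation p = 0.0357). With the median level of the erythroid genes in each library as the reference, the difference was 0.15 for Gata1, 0.22 for Tal1 and 0.05 for Gfi1b. That of Nfe2 was then -0.23 (exact permutation p = 0.536 after adjustment). This reference is the level of the middle gene by abundance, not the median change. The median log2 fold change of these genes, 2.09, was above those of Gata1 (1.47), Tal1 (1.56) and Gfi1b (1.37). Within the 3 pairs of libraries that share a replicate number, a comparison added after the data were seen, the ratio of Gata1 differed by -0.49, -0.42 and -0.04, one sign in every pair, and that of Tal1 by -0.64, -0.23 and 0.09 (exact sign-flip p = 0.25 and 0.5, where 3 pairs allow none below 0.25). Against the mean of the 19 megakaryocyte genes, a comparison added after the data were seen, Gata1 stood at -3.38 ± 0.13 in saline (SD, n = 5) and -3.40 ± 0.15 after fucoidan (SD, n = 3), a difference of -0.02 (exact permutation p = 0.714). Tal1 differed by 0.04 (exact permutation p = 0.786) and Gfi1b by -0.12 (exact permutation p = 0.643) on that ratio. Leaving out 1 library turned the sign of the Gata1 value in 2 cases and of the Tal1 value in 3, so neither direction was fixed. Nfe2 was lower relative to these genes in 3 of 3 fucoidan libraries, by 0.40 on average (exact permutation p = 0.0357; 0.0952 adjusted over the 8 members). Its fucoidan values were -1.20, -1.23 and -1.22, a spread far smaller than the 0.28 SD of the saline libraries.

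**Figure D3:**
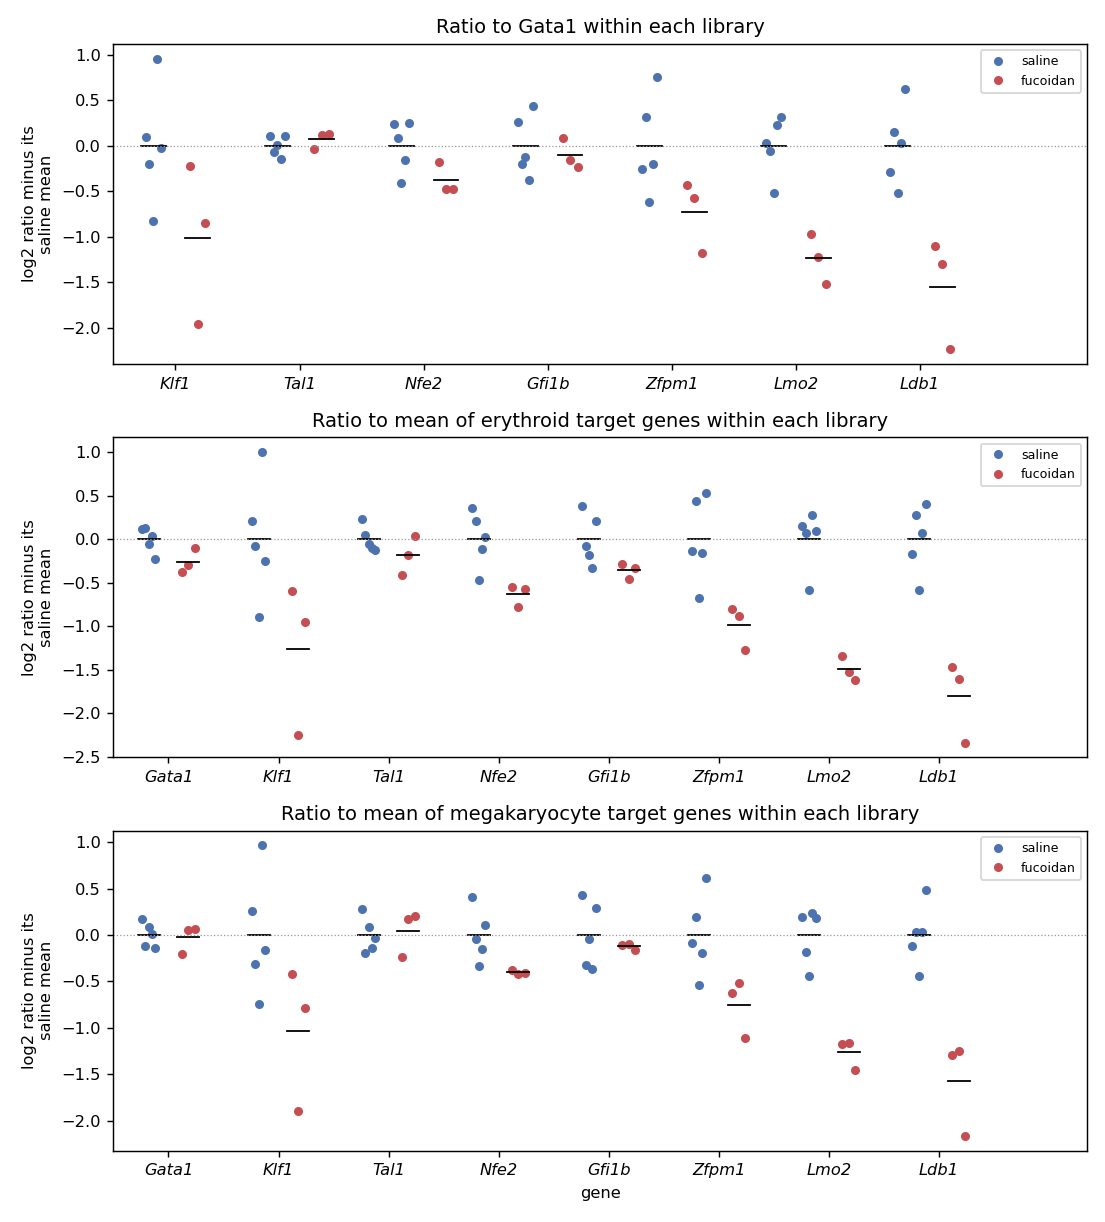
Log2 ratio of each factor to Gata1, to the mean of 33 erythroid genes and to the mean of 19 megakaryocyte genes within each library, minus its saline mean (vertical axes), with blue points for saline, red for fucoidan and black lines for group means. The fucoidan points of Gfi1b lie within the saline range in the ratios to Gata1 and to the megakaryocyte genes, those of Tal1 overlap the saline points in both, and those of Lmo2 and Ldb1 lie below all saline points in the 3 panels.

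Among the saline libraries the haemoglobin share and the level of Gata1 had the same order, replicate 3, then 1, 4, 2 and 5, and Tal1 had that order too. Nfe2 and Gfi1b did not follow that order throughout. In the fucoidan group replicate 3 was highest in all of these, while replicate 1 had a higher haemoglobin share than replicate 2 (14.2% against 13.5%) and lower levels of Gata1 and Tal1. The whole marker lists were higher as well. Of all genes, 9.11% were called higher. The summed level of 10 erythroid markers was 31740 to 87810 CPM in saline and 153500 to 367200 CPM after fucoidan, with 10 of 10 called higher. That of 10 platelet markers was 2049 to 4394 CPM in saline and 6162 to 13260 CPM after fucoidan, with 9 of the 9 tested called higher. Neither list is independent of the erythroid and megakaryocyte genes above, since they share members. The part of red cell and platelet RNA in the change of the factors was not tested.

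**Figure D4:**
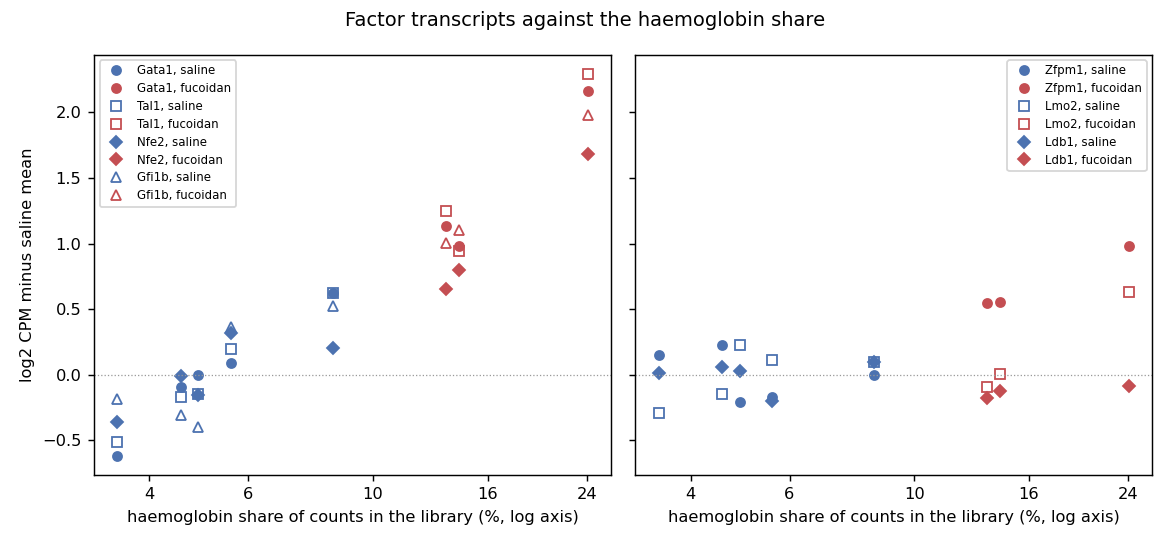
Level of each factor except Klf1, which is not drawn, as log2 CPM minus its saline mean (vertical axis) against the haemoglobin share of the library's counts (horizontal axis, %, log axis), with blue for saline and red for fucoidan libraries and 1 marker shape per gene. Gata1, Tal1, Nfe2 and Gfi1b (left) and Zfpm1 (right) are highest in the library with 24.1% haemoglobin and higher in the 3 fucoidan libraries than in all saline libraries, while Lmo2 and Ldb1 (right) overlap between the groups.

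Progenitors, mast cells and basophils also express some of these factors. Of 7 tested progenitor markers 1 was called, Kit, the stem cell factor receptor, with a log2 fold change of 1.06 (edgeR adjusted p = 0.0066). At an unadjusted p under 0.05, 2 were higher and 0 lower. Over all genes 9.11% were called higher and 4.65% lower. On lists as short as this one and those below, counts of 0 or 1 cannot be set apart from these shares. The summed level of all 11 listed progenitor markers was 60.03 to 77.8 CPM in saline and 66.0 to 110 CPM after fucoidan. Of 9 basophil and mast cell markers edgeR called 0 (1 higher at an unadjusted p under 0.05; DESeq2 called 0 and limma-voom 1), with sums of 80.6 to 139.8 CPM in saline and 128 to 208 CPM after fucoidan. Of 8 cell cycle markers edgeR called 0 (1 higher and 1 lower at an unadjusted p under 0.05; DESeq2 called 0 and limma-voom 1 lower), with sums of 26.9 to 66.9 CPM and 46.3 to 70.9 CPM. Gata2, the GATA factor of progenitors, mast cells and basophils, is on the progenitor list and on the basophil and mast cell list. The sums of those lists are therefore not independent of Gata2. Gata2 was at 34.8 ± 9.01 CPM in saline (SD, n = 5) and 48.2 ± 20.7 CPM after fucoidan (SD, n = 3), a log2 fold change of 0.46 (edgeR adjusted p = 0.273).

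Genes for proteins that the factors bind were examined next, and 23 of 26 were not called. Of the 26 complex partners (E proteins, small MAF proteins, LDB1-binding proteins and chromatin enzymes), all tested, 1 was called higher and 2 lower (3 and 3 at an unadjusted p under 0.05), where 9.11% of all genes were called higher and 4.65% lower, and their median log2 fold change was -0.04. Ssbp3, which binds and stabilises LDB1, rose from 44.6, 44.3, 51.4, 44.8 and 43.4 CPM in saline to 73.6, 69.2 and 104 CPM after fucoidan. The groups were separate, with a log2 fold change of 0.84 (SE 0.13, edgeR adjusted p = 0.00396), and Ssbp3 kept its call under every alternative run. Tcf3, which encodes the E proteins E12 and E47 that pair with TAL1, was at 235 ± 7.003 CPM in saline (SD, n = 5) and at 178 ± 26.15 CPM after fucoidan (SD, n = 3), and Tcf4, a second E protein gene, at 75.4 ± 5.48 and 52.5 ± 9.37 CPM. Both fell in the test. Their log2 fold changes were -0.40 (edgeR adjusted p = 0.0333) and -0.52 (0.0178). Tcf3 was not called with the replicate numbers as a block (edgeR adjusted p = 0.0724) or in 5 of the 8 fits that left out 1 library, and Tcf4 was not called without fucoidan replicate 1 (0.0623) or 3 (0.0986). With the block, 1 partner was lower. The summed level of 8 B cell markers, cells in which both E proteins are high, was 3966 to 5121 CPM in saline and 2368 to 3405 CPM after fucoidan, with 7 of 8 called lower, and its part in the fall of Tcf3 and Tcf4 was not tested. Maff, a small MAF gene singled out after its values were seen, had the largest difference of the partners, 2.43, 16.4, 5.71, 8.09 and 5.41 CPM in saline against 2.35, 3.05 and 1.43 CPM, and was not called (log2 fold change -1.71, SE 0.54, edgeR adjusted p = 0.0601).

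Of 26 other factors of blood cell development, 25 were tested, 3 were called higher and 1 lower (7 and 4 at an unadjusted p under 0.05). The share called higher was 12%, where 9.11% of all genes were called higher and 4.65% lower. The median log2 fold change of the list was 0.11. Sox6, which works with BCL11A in silencing embryonic globin and supports red cell maturation, rose from 0.683 to 3.63 CPM (log2 fold change 2.39, SE 0.48, edgeR adjusted p = 0.00841). E2f2, a cell cycle factor used in late erythroblasts, rose from 116 to 265.5 CPM (1.20, adjusted p = 0.0122 in edgeR). Zbtb16, the PLZF factor of innate-like lymphocytes, rose from 10.9 to 25.0 CPM (1.19, adjusted p = 0.0341 in edgeR). Bcl11a, a repressor of embryonic globin that is also a B cell factor, fell from 149 to 94.8 CPM (-0.65, adjusted p = 0.00406 in edgeR), again beside the lower B cell markers, whose part was not tested. Spi1, the myeloid factor PU.1 that opposes GATA1, was at 196 CPM in saline and 165 CPM after fucoidan and did not pass the test (log2 fold change -0.25, edgeR adjusted p = 0.296). Some of these calls depended on single libraries or settings: Sox6 was not called without fucoidan replicate 3 (edgeR adjusted p = 0.0517), E2f2 was not called with the replicate block (0.0635) or with no count filter (0.105), and Zbtb16 was not called without any 1 of saline replicates 1, 3 and 4 or fucoidan replicates 1 to 3, or with no count filter (0.202). With the block 2 were called higher.

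Zfpm1 and Tal1 can also be expressed by cells other than red cell and platelet precursors. Of 9 T cell markers 3 were called higher by edgeR (7 by DESeq2, 7 by limma-voom, and 9 at an unadjusted p under 0.05), with sums of 728 to 912 CPM in saline and 1013 to 1358 CPM after fucoidan, and all 7 natural killer cell markers were, with sums of 199 to 284 CPM and 434 to 671 CPM. Of the endothelial list, 2 of 4 tested genes were called higher, Esam and Vwf, which platelets also carry, Tek, Emcn, Cldn5 and Egfl7 did not pass the count filter, and Cdh5 was at 1.18 CPM in saline and 1.84 CPM after fucoidan. Over all genes 9.11% were called higher and 4.65% lower. The part of these cells in the level of any member was not tested.

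The genes whose profile over the 8 libraries was most like each member were found from the root-mean-square (RMS) difference of log2 CPM, each gene centred on its own mean, among 11416 protein-coding genes with a mean of at least 1 CPM. For Gata1 they were Gp5, platelet glycoprotein V (RMS 0.089), Esam, an adhesion molecule of platelets and endothelium (0.091), and Adgrg1, an adhesion receptor (0.092), against a median RMS of 0.855 over all genes compared. For Tal1 they were Rnf11 (RMS 0.10), Nt5c3, the pyrimidine nucleotidase of maturing red cells (0.11), and Angpt1, a growth factor (0.123). For Nfe2 they were Pla2g4a, cytosolic phospholipase A2 (RMS 0.079), Sort1, sortilin (0.097), and Ftl1, the ferritin light chain (0.099). For Gfi1b they were Fam174b (RMS 0.10), Chac2 (0.121) and Trpc6, a cation channel (0.122). For Zfpm1 the nearest gene was Fyn, a SRC-family kinase (RMS 0.083), then Atp6v0a2, a proton pump subunit (0.087), and Hid1 (0.094). Lmo2 was nearest to Nipsnap2 (RMS 0.094), Dctn2 (0.097) and Dazap2 (0.102), and Ldb1 to Setd6 (0.037), Ulk3 (0.048) and Atg16l1 (0.048). Klf1 had no close neighbour: its nearest, Tigd5, was at an RMS of 0.408. Of the neighbours of Gata1, Gp5 had a log2 fold change of 1.51 and Adgrg1 of 1.56. Those of Tal1 ran from 1.52 to 1.58, those of Zfpm1 from 0.62 to 0.77 and those of Ldb1 from -0.15 to -0.10, which the measure of likeness fixes in part because it uses the same libraries.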

How the data were processed

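RNA of blood mononuclear cells from 8 mice was sequenced as poly(A)-selected 150-base read pairs, per the labels' protocols. The submitters' processing notes name cutadapt 4.0, Trimmomatic 0.39, HISAT2 2.2.1 and GRCm39 (mm39); no source used here names the counter, annotation release or strand setting. The deposited table holds raw read counts per gene, made by the authors, for the 8 libraries. All libraries share 1 batch date in the labels, and red cell lysis is not mentioned there.

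From the counts, edgeR 4.0.16 (R 4.3.3) gave TMM factors, a low-count filter (filterByExpr), a robust quasi-likelihood fit of treatment without covariates and Benjamini-Hochberg adjusted p-values; a gene was called under 0.05. SE is the absolute log2 fold change over the square root of F. CPM is TMM-scaled, and RPKM divides it by the deposited gene length. Ratios were taken on log2 CPM (prior count 2) and compared by exact two-sided permutation tests over libraries (scipy 1.17.1). The p-values measure the spread between these mice. The 8 members and the gene lists (textbook genes) were chosen with earlier results of these data known. The genes named were all members, up to 4 called genes with the smallest p per list and direction, 11 genes given in advance whatever their result, and the 3 genes most like each member. DESeq2 1.42.0, limma-voom (limma 3.58.1), other scalings and filters, leaving out each library and a replicate block were alternatives. Scripts were tested on simulated data. There edgeR called 12% of genes changed 1.5-fold, 50% of those changed 2-fold and 83.6% of those changed 4-fold. A gene that was not called may thus still have changed. False calls were 6.12% of the calls of edgeR, 18.6% of those of DESeq2 and 4.26% of those of limma-voom. The replicate numbers in the labels are shared by the groups, and with group means removed same-numbered libraries correlated at 0.177, 0.233 and 0.144 (other pairs -0.261 to 0.144), so the block was treated as a pairing; the ratio tests permuted libraries freely, and within-pair differences were computed as an alternative. Ahsp, on the erythroid list, was not analysed here, Icam4 was at 0 in all libraries, and Pklr and Gp1bb failed the filter.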

Additional observations from a re-analysis of the deposited data

Results flagged for a closer look

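The log2 ratio of Lmo2 to the mean of the erythroid genes was 0.753 in saline replicate 3, below the other 4 saline libraries, of which the nearest was at 1.40. The gap was 0.759 of the group's range, past the 0.71 that Dixon's test allows for 5 values. Saline replicate 3 was also the saline library with the highest haemoglobin share, 8.48%. The erythroid genes include the haemoglobin genes, so the ratio and that share are not independent. Lmo2 itself was at 158 CPM in that library, within the saline range of 121 to 173 CPM. Of 31 groups examined this way 1 was flagged, and chance alone flags about 1 in 20.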

How the results depend on the processing

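Zfpm1 stayed called higher, and Lmo2 and Ldb1 stayed uncalled, under every alternative run. With no count filter the called counts were 2 for the members, 1 higher for the other factors, 21 for the erythroid genes and 10 for the megakaryocyte genes. The cause was not tested. Upper-quartile scaling gave 2 other factors lower, and a minimum of 10 counts in every library gave 2 higher. DESeq2 gave 3 complex partners lower. limma-voom gave 1063 genes lower in all, 2 partners higher, and 5 other factors higher with 3 lower. With the replicate block 439 genes were lower in all, 1 partner was lower and 2 other factors were higher; the block changed no call of a member (log2 fold change 1.23 for Gata1 and 1.28 for Tal1). Leaving out 1 library gave 746 to 1368 genes higher and 182 to 856 lower in all, 4 to 5 members higher, 0 to 3 partners lower, and 1 to 4 other factors higher with 1 to 2 lower. The erythroid genes called higher then numbered 22 to 27. The lowest counts over all genes were without fucoidan replicate 3; leaving out saline replicate 3 (447 lower) or 4 (325), or fucoidan replicate 1 (365) or 2 (315), also moved the lower count. These fits hold fewer samples. Lmo2 ranged from -0.046 to 0.34 on the log2 scale over these fits. Over left-out libraries the ratios that changed sign were Gfi1b to Gata1 (-0.19 to 0.01), Gata1 to megakaryocyte genes (-0.071 to 0.063) and Tal1 to megakaryocyte genes (-0.033 to 0.187). Against the median level of the erythroid genes, in place of the mean, those of Gata1 (0.15), Tal1 (0.22) and Gfi1b (0.048) did. That median follows the gene of middle abundance and is not a median change. The cause of the sign changes was not tested. Within the 3 same-numbered pairs (the replicate block for ratios, added after the data were seen) Tal1 to megakaryocyte genes was -0.012, and the other ratios kept their sign. Depth limits Klf1.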
